A study of Brassica napus with 12 samples.

Results

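FLOWERING LOCUS C (FLC) copies were read out in immature rapeseed (Brassica napus) seeds by RNA sequencing. The copies were taken as 9 gene IDs named as FLC on chromosomes A2, A3, A10, C2, C3 and C9. Of these, 8 were among the 50338 genes with values in at least 1 library, 6 had values in all 12 libraries, and each library listed 7. The FLC names come from this list of IDs, because the files hold IDs without gene names. Where an ID was not listed for a line it had been filtered, so the copy has no value there rather than a measured 0.

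The samples came from 4 inbred lines called A28, R8Q10, SW and YH25005, with 3 libraries each, all collected 24 days after pollination from field-grown plants whose flowers had been bagged for selfing. The study set lines with high linolenic acid in the seed against lines with low linolenic acid, without stating in the labels the trait of each line. The labels name the tissue as immature seeds while the extraction protocol names embryos, so the tissue that entered the preparation is not settled. Nothing states that the replicates were separate plants, so the p-values speak to the spread among these samples alone, and this spread may be technical. In whole tissue, fewer cells that make a transcript and less transcript per cell cannot be told apart.

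FLC is a MADS-box transcription factor that represses flowering. In Arabidopsis it holds down the floral promoters FT and SOC1, is silenced by winter cold through Polycomb repression that VIN3 helps to set up, and is switched back on in the embryo, so that each generation starts with an active repressor. Rapeseed combines an A and a C subgenome and keeps several FLC copies, and sequence variants of some of them, the A10 copy among them, are known to differ between winter and spring types.

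All libraries held between 30150457 and 40762254 counts over the listed genes, so 3 counts, the most that a count of 0 leaves room for, came to 0.0736 to 0.0995 CPM (counts scaled to a common library size) by library, for counting error only. A28 had the loosest replicates: log2 CPM correlated across genes at 0.798 between its replicates 2 and 3, against up to 0.952 in other pairs, and its biological coefficient of variation was 0.499, against 0.264 in YH25005. Replicate 1 correlated at 0.881 with replicate 2 and 0.899 with replicate 3, so these values do not single out replicate 2. It was the highest A28 library for every listed copy except BnaC09g46540D, so results that rest on it are also given without it. That choice was made from the FLC values and is not a quality filter. Of 63 symbols of flowering and seed marker genes, 0 could be tied to an ID of the files, so the tissue label could not be checked against markers and other genes of the flowering pathway are not described. The copies are alike in sequence, and the assignment of reads that match several copies is not given in the labels, so the levels of single copies are uncertain to that extent. The library protocol does not mention strand, so sense and antisense reads could not be separated.

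Levels were compared between copies in FPKM, which is per transcript length. BnaA03g02820D, on A3, had the highest mean FPKM of the listed copies in every line, but in A28 it did so through replicate 2 alone. It had 15.6, 96.4 and 9.26 FPKM in A28, 33.9, 95.9 and 22.1 FPKM in R8Q10, 52.4, 66.4 and 23.3 FPKM in SW and 133, 88.2 and 103 FPKM in YH25005. The YH25005 libraries were high throughout, while 1 library each of A28 and R8Q10, replicate 2 in both, reached the same range in FPKM.

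BnaA02g00370D, on A2, came with the same pattern at a lower level. It had 5.84, 39.2 and 3.05 FPKM in A28, 14.7, 35.4 and 9.54 FPKM in R8Q10, 23.1, 34.9 and 12.1 FPKM in SW and 55.6, 41.1 and 48.6 FPKM in YH25005. The lowest YH25005 library stood above the highest library of every other line. The ratio of the A2 copy to BnaA03g02820D in FPKM stayed between 0.329 (A28 replicate 3) and 0.526 (SW replicate 2) over the 12 libraries, although in A28 the A2 copy moved by 12.9 times between libraries and BnaA03g02820D by 10.4 times.

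BnaA03g13630D, the other A3 copy, was a minor copy. It had 1.24, 3.87 and 0.637 FPKM in A28, 7.28, 5.34 and 1.15 FPKM in R8Q10, 1.14, 2.06 and 0.593 FPKM in SW and 9.05, 6.37 and 9.32 FPKM in YH25005. YH25005 was again highest by mean, at 8.24 ± 1.63 FPKM (SD, n = 3), with 1 R8Q10 library inside its range.

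The C9 copies BnaC09g46500D and BnaC09g46540D, whose IDs are close together, did not follow each other. BnaC09g46540D had 30.0, 32.4 and 46.4 FPKM in A28 and 27.6, 21.9 and 17.2 FPKM in SW, but 1.00, 4.58 and 1.53 FPKM in R8Q10 and 3.48, 1.90 and 4.76 FPKM in YH25005. The A28 and SW libraries were all above the R8Q10 and YH25005 libraries, and the R8Q10 and YH25005 ranges overlapped. BnaC09g46500D had 5.88, 11.6 and 2.66 FPKM in A28, 13.0, 20.0 and 8.52 FPKM in R8Q10, 9.86, 10.7 and 6.34 FPKM in SW and 16.8, 13.7 and 14.6 FPKM in YH25005. Which C9 copy led therefore depended on the line. BnaC09g46540D exceeded BnaC09g46500D in FPKM in 3 of 3 libraries of A28 and of SW, and in 0 of 3 libraries of R8Q10 and of YH25005. The ratio of BnaC09g46540D to BnaC09g46500D was 2.81 to 17.4 in A28 and 2.05 to 2.80 in SW, against 0.0769 to 0.229 in R8Q10 and 0.138 to 0.326 in YH25005.

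BnaC02g00490D, on C2, was the most even copy across lines. It had 11.9, 26.6 and 15.2 FPKM in A28, 13.4, 23.0 and 11.5 FPKM in R8Q10, 15.6, 16.1 and 7.48 FPKM in SW and 18.9, 14.4 and 19.0 FPKM in YH25005. The ranges overlapped in every pair of lines.

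BnaA10g22080D, on A10, was listed for SW and YH25005 and not for A28 and R8Q10. SW had 18, 13 and 2 counts, with deposited values of 0.602, 0.353 and 0.0300 FPKM. YH25005 had 997, 694 and 728 counts, with deposited values of 23.0, 14.6 and 20.3 FPKM. SW replicate 3 was below this floor of 3 counts, so the copy was near the detection limit in SW and abundant in YH25005. Each gene of this list passed 1 CPM in 3 or more of its 6 libraries, and no SW library reached 1 CPM for this copy, so the copy entered the list through YH25005 and was bound to differ between the 2 lines.

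The C3 copies carried little or no readout. BnaC03g16530D was listed for A28 and R8Q10, with 29, 109 and 36 counts (0.314, 1.89 and 0.620 FPKM) in A28 and 56, 176 and 24 counts (0.801, 2.22 and 0.353 FPKM) in R8Q10. It was the lowest listed copy of both lines, and the ranges overlapped. BnaC03g04170D was listed in no library and has no value here.

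**Figure D1:**
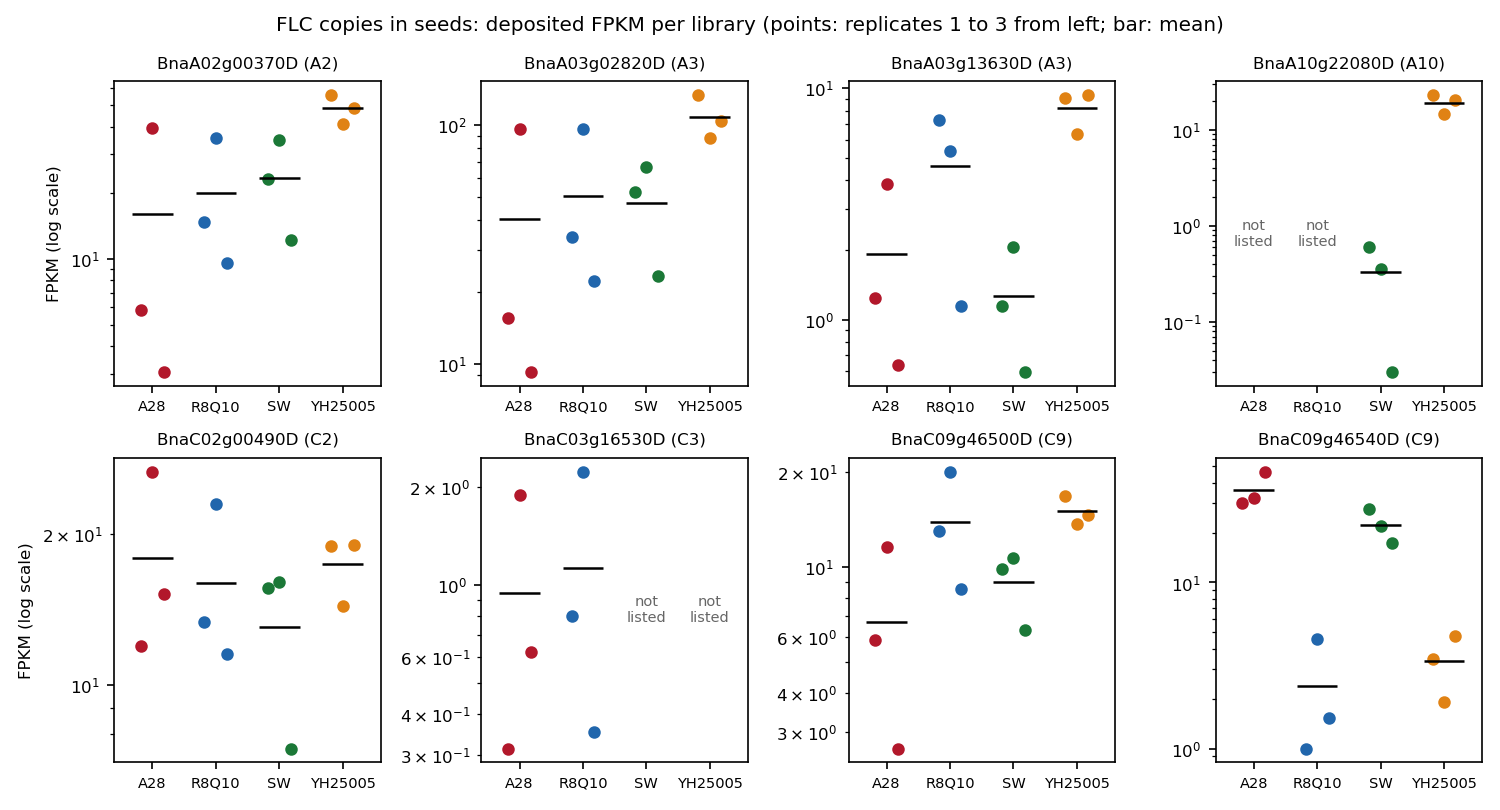
Deposited FPKM (log scale) of the 8 listed FLC copies in each library, by line; points are replicates 1 to 3 from left to right and bars are means. BnaC09g46540D was at 17.2 FPKM or more in A28 and SW and at 4.76 FPKM or less in R8Q10 and YH25005, and BnaA10g22080D was listed for SW and YH25005, with 0.0300 to 0.602 FPKM in SW and 14.6 to 23.0 FPKM in YH25005.

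The order of the copies differed by line. In A28, BnaA03g02820D averaged 40.4 ± 48.6 FPKM (SD, n = 3) and BnaC09g46540D 36.3 ± 8.82 FPKM, with overlapping libraries. BnaC09g46540D was the highest copy in 2 of 3 A28 libraries, and without replicate 2 it averaged 38.2 FPKM, against 13.6 FPKM for BnaC02g00490D and 12.4 FPKM for BnaA03g02820D. Over all 3 libraries, BnaC02g00490D (17.9 ± 7.68 FPKM) and BnaA02g00370D (16.0 ± 20.1 FPKM) came next and overlapped each other. BnaC09g46500D (6.70 ± 4.50 FPKM), BnaA03g13630D (1.91 ± 1.72 FPKM) and BnaC03g16530D (0.941 ± 0.835 FPKM) closed the A28 order, each overlapping its neighbour in the order. The wide SDs of the A2 and A3 copies in A28 came with a single library, replicate 2.

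In R8Q10, BnaA03g02820D averaged 50.6 ± 39.6 FPKM, followed by BnaA02g00370D (19.9 ± 13.7 FPKM), BnaC02g00490D (16.0 ± 6.15 FPKM) and BnaC09g46500D (13.8 ± 5.80 FPKM), whose libraries overlapped in each step. BnaA03g13630D (4.59 ± 3.14 FPKM), BnaC09g46540D (2.37 ± 1.93 FPKM) and BnaC03g16530D (1.13 ± 0.977 FPKM) were the low copies of R8Q10, again overlapping in each step. BnaC09g46540D, which led A28 without replicate 2, was next to last in R8Q10.

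In SW, BnaA03g02820D averaged 47.4 ± 22.0 FPKM, BnaA02g00370D 23.4 ± 11.4 FPKM and BnaC09g46540D 22.2 ± 5.21 FPKM, and these neighbours overlapped. BnaC02g00490D (13.0 ± 4.83 FPKM) and BnaC09g46500D (8.96 ± 2.31 FPKM) overlapped each other and lay below the range of BnaC09g46540D. BnaA03g13630D (1.26 ± 0.742 FPKM) and BnaA10g22080D (0.328 ± 0.287 FPKM) were the lowest in SW, and they overlapped by 1 library.

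In YH25005 the upper steps were separate. BnaA03g02820D averaged 108 ± 22.7 FPKM, above every library of BnaA02g00370D at 48.4 ± 7.21 FPKM, which in turn stood above every library of BnaA10g22080D at 19.3 ± 4.29 FPKM. BnaA10g22080D, BnaC02g00490D (17.4 ± 2.64 FPKM) and BnaC09g46500D (15.0 ± 1.61 FPKM) overlapped in each step. BnaA03g13630D (8.24 ± 1.63 FPKM) and BnaC09g46540D (3.38 ± 1.44 FPKM) were the low copies and did not overlap. The ratio of the A10 copy to BnaC09g46500D in FPKM was 0.00473 to 0.0610 in SW and 1.07 to 1.39 in YH25005.

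Summed over the listed copies, FLC came to 70.8, 212.0 and 77.8 FPKM in A28, 84.0, 186 and 54.8 FPKM in R8Q10, 130, 152 and 67.1 FPKM in SW and 260, 180 and 220 FPKM in YH25005. The YH25005 sums averaged 220 ± 39.7 FPKM and overlapped A28 and R8Q10 through replicate 2 of each. The share of this sum that came from A subgenome copies was 82.6 to 84.9% in YH25005, 53.7 to 68.1% in SW, 59.9 to 73.3% in R8Q10 and 16.6 to 65.8% in A28. YH25005 did not overlap any other line in this share, and A28 ran lowest in 2 of its 3 libraries, in which BnaC09g46540D held 42.4 and 59.6% of the sum, against 15.3% in replicate 2. The same C9 copy held 14.4 to 25.7% in SW, 1.19 to 2.79% in R8Q10 and 1.05 to 2.17% in YH25005. The A10 copy held 8.10 to 9.25% in YH25005. Copies that were filtered from a line count as nothing in these sums.

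**Figure D2:**
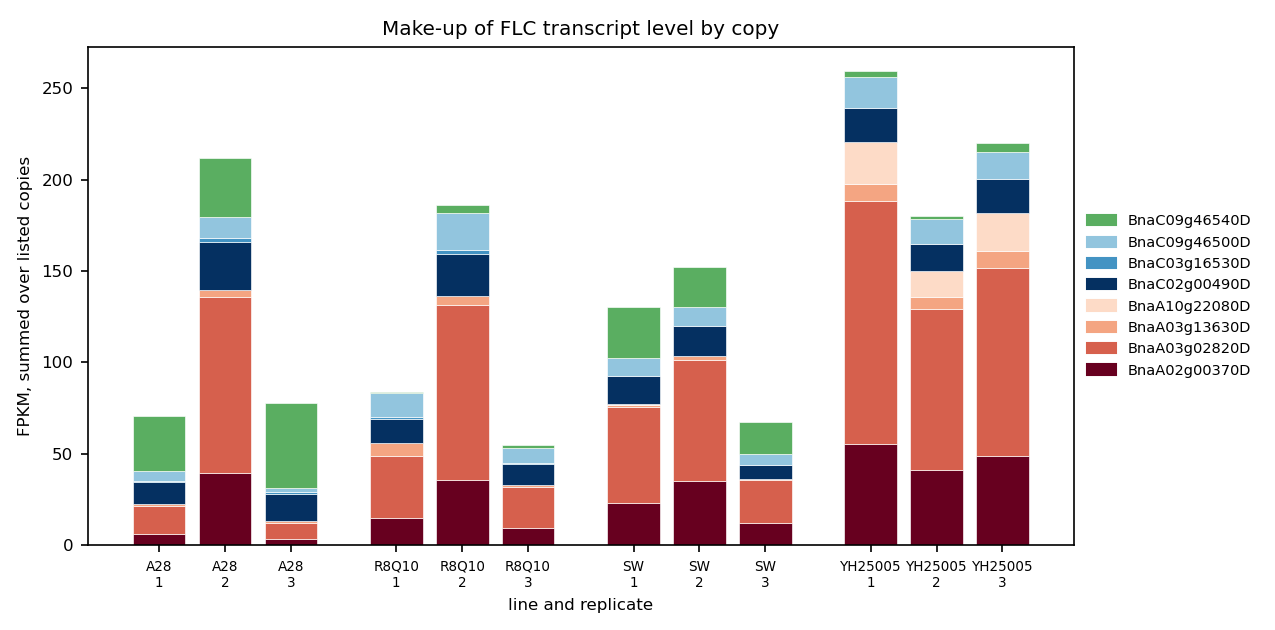
FPKM of the listed FLC copies stacked for each of the 12 libraries, by line and replicate. BnaC09g46540D makes up 15.3 to 59.6% of the stack in A28 and 1.05 to 2.17% in YH25005, and the sum ranges between 54.8 FPKM in R8Q10 replicate 3 and 260 FPKM in YH25005 replicate 1.

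Differences between lines were tested on counts with edgeR's quasi-likelihood test over all genes, and a copy was called at a Benjamini-Hochberg adjusted p under 0.05. The differences below are log2 ratios of TMM-scaled CPM, first line minus second, with 95% intervals. TMM scaling corrects for the part of each library taken by abundant genes; its factors were 0.766 to 0.914 in YH25005 and 1.00 to 1.14 in the other lines, so YH25005 stands higher on this scale than in FPKM. With library totals alone, the median of all genes moved to 0.47 in A28 minus YH25005, 0.43 in R8Q10 minus YH25005 and 0.33 in SW minus YH25005. Of the 6 copies listed in all libraries, 3 differed between any of the 4 lines, where 46.2% of all 43708 tested genes did. They were BnaC09g46540D (edgeR adjusted p = 0.000332), BnaA03g13630D (0.00436) and BnaC09g46500D (0.0302). BnaA03g02820D (0.105), BnaA02g00370D (0.107) and BnaC02g00490D (0.282) did not pass.

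BnaC09g46540D carried the largest differences among the 6 copies. It was higher in A28 than in R8Q10 by 4.07 ± 0.56 (SE; edgeR adjusted p = 0.000293) and higher in A28 than in YH25005 by 2.87 ± 0.53 (adjusted p = 0.0026). It was lower in R8Q10 than in SW, with a log2 difference of -3.46 ± 0.55 (adjusted p = 0.000742), and higher in SW than in YH25005 by 2.26 ± 0.52 (adjusted p = 0.00803). All 4 calls held in 17 of 17 alternative settings. Among these are 12 fits that leave out 1 library, some of them from a line outside the pair. Also among them is a fit with the replicate number as a block, though the numbers are not a shared pairing. In each of these pairs the 3 libraries of one line did not overlap the 3 of the other. How large a share of all genes separates in this way was not counted. A28 and SW also did not overlap in CPM, but their difference of 0.61 (interval -0.47 to 1.69) did not pass (adjusted p = 0.48). R8Q10 and YH25005 differed by -1.20 (interval -2.32 to -0.07; adjusted p = 0.115), and without R8Q10 replicate 2 by -2.01 (adjusted p = 0.0111).

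BnaA03g13630D was lower in A28 than in YH25005, at a log2 difference of -2.86 ± 0.70 (edgeR adjusted p = 0.0115), and lower in SW than in YH25005, at -3.57 ± 0.72 (adjusted p = 0.0039). Both calls held in 17 of 17 settings. R8Q10 was intermediate: it stood above SW by 2.01 (interval 0.51 to 3.51; adjusted p = 0.0543) and below YH25005 at -1.56 (interval -3.00 to -0.11; adjusted p = 0.11), and neither passed. The R8Q10 and SW difference passed with DESeq2 (adjusted p = 0.0136), with library totals in place of TMM (adjusted p = 0.0474) and without A28 replicate 2 (adjusted p = 0.0239), A28 replicate 3 (0.0388) or R8Q10 replicate 3 (0.0169).

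BnaC09g46500D, unlike its C9 partner, was lower in A28 than in YH25005. It had a log2 difference of -1.79 ± 0.46 (edgeR adjusted p = 0.0155), a call lost without A28 replicate 1 (adjusted p = 0.0559) and without YH25005 replicate 1 (adjusted p = 0.0537). The SW and YH25005 libraries did not overlap, a separation whose share over all genes was not counted. In the fit of 12 libraries the difference of -1.28 (interval -2.29 to -0.28) did not pass (adjusted p = 0.0595). It passed with DESeq2 (adjusted p = 0.0307), with the replicate number as a block (0.0207), in a fit of these lines alone (0.0104) and without A28 replicate 2 (0.0240) or 3 (0.0279). Replicate numbers did not pair SW with YH25005, where same-numbered libraries correlated at -0.19 to 0.03, so the block has no basis there. A28 against R8Q10, at -1.04 (interval -2.04 to -0.04), did not pass either (adjusted p = 0.135), but did without A28 replicate 2 (-1.73, adjusted p = 0.0128).

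BnaA02g00370D and BnaA03g02820D did not pass in any pair of this fit, with wide intervals. For the A2 copy A28 against YH25005 gave -2.23 (interval -4.08 to -0.37; edgeR adjusted p = 0.0713), and for BnaA03g02820D it gave -2.07 (interval -3.86 to -0.28; adjusted p = 0.0815). In TMM-scaled CPM all YH25005 libraries of both copies were above every library of the other lines, at 51.5 CPM or more for the A2 copy and 72.5 CPM or more for BnaA03g02820D. In FPKM the YH25005 libraries of BnaA03g02820D overlapped those of A28 and R8Q10. The share of all genes that separate in this way was not counted. Several settings changed these calls. DESeq2 called A28 against YH25005 for the A2 copy (adjusted p = 0.0171) and for BnaA03g02820D (0.0237). With the replicate number as a block, both copies were called in all 3 pairs with YH25005, at adjusted p of 0.0106 to 0.0473 for the A2 copy and 0.0130 to 0.0340 for BnaA03g02820D, and across the 4 lines (0.0139 and 0.0150). However, same-numbered libraries correlated at only -0.30 to 0.12 in the pairs with YH25005. The numbers did not pair these lines, so the block has no basis there and its calls add no support. Fits of the compared lines alone called both in R8Q10 against YH25005 and in SW against YH25005. Without A28 replicate 2 the difference of A28 from YH25005 was -4.0 for the A2 copy (adjusted p = 0.0020) and -3.72 for BnaA03g02820D (adjusted p = 0.00263), and both copies also passed in A28 against R8Q10 (-2.23 and -2.00), A28 against SW (-2.51 and -2.06) and R8Q10 against YH25005 (-1.77 and -1.72). Replicate 2 was also the highest library of R8Q10 and of SW for both copies, and this fit kept those libraries. Without R8Q10 replicate 2 instead, A28 minus R8Q10 was 0.40 for the A2 copy and 0.47 for BnaA03g02820D. Neither passed there (edgeR adjusted p = 0.801 and 0.754). BnaC02g00490D passed in no pair with or without A28 replicate 2. Its differences ran between -0.83 (SW minus YH25005, interval -1.68 to 0.03) and 0.41 (A28 minus SW, interval -0.45 to 1.26).

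Counted by pair, 1 of 6 copies was called in A28 against R8Q10, as higher, where 21.7% of all genes were called, 12% higher and 9.63% lower. In R8Q10 against SW, 1 of 6 was called, as lower, where 23.6% of all genes were, 11.2% higher and 12.4% lower. Both counts are near the share of all genes. In A28 against YH25005, 3 of 6 copies were called, 1 higher and 2 lower, against 27.2% of all genes (14.5% higher and 12.7% lower), and in SW against YH25005, 2 of 6 were called, 1 higher and 1 lower, against 26.7% (13.6% higher and 13.1% lower). In A28 against SW, 0 of 6 copies passed in edgeR, where 15.4% of all genes did (7.5% higher and 7.9% lower). Of these copies, 0 had an unadjusted p under 0.05, and DESeq2 also called 0, where it called 9150 of 43574 genes. In R8Q10 against YH25005, 0 of 6 passed in edgeR against 23.4% of all genes (10.7% higher and 12.7% lower). Of these copies, 2 had an unadjusted p under 0.05, and DESeq2 called 0, where it called 13615 of 43574 genes. The median difference over the 6 copies was -1.93 in A28 minus YH25005, -1.38 in R8Q10 minus YH25005 and -1.42 in SW minus YH25005, where the medians of all genes were 0.06, 0.02 and -0.00. These 3 comparisons share the YH25005 libraries.

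Without A28 replicate 2, the counts were 5 of 6 in A28 against R8Q10 and in A28 against YH25005, 4 in SW against YH25005, and 2 in A28 against SW, R8Q10 against SW and R8Q10 against YH25005. The share of all genes called also went up in each pair without that library, to 24.9% in A28 against R8Q10, 22% in A28 against SW, 36.4% in A28 against YH25005, 26.7% in R8Q10 against SW, 28.6% in R8Q10 against YH25005 and 30.9% in SW against YH25005. Without A28 replicate 3 instead, 1 of 6 was called in A28 against R8Q10, 0 in A28 against SW and 3 in A28 against YH25005. In the pairs without A28 that fit called 2 in R8Q10 against SW, 0 in R8Q10 against YH25005 and 3 in SW against YH25005. Over all 43708 genes it called 8044, 5917, 9425, 11871, 12207 and 13733 in turn.

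**Figure D3:**
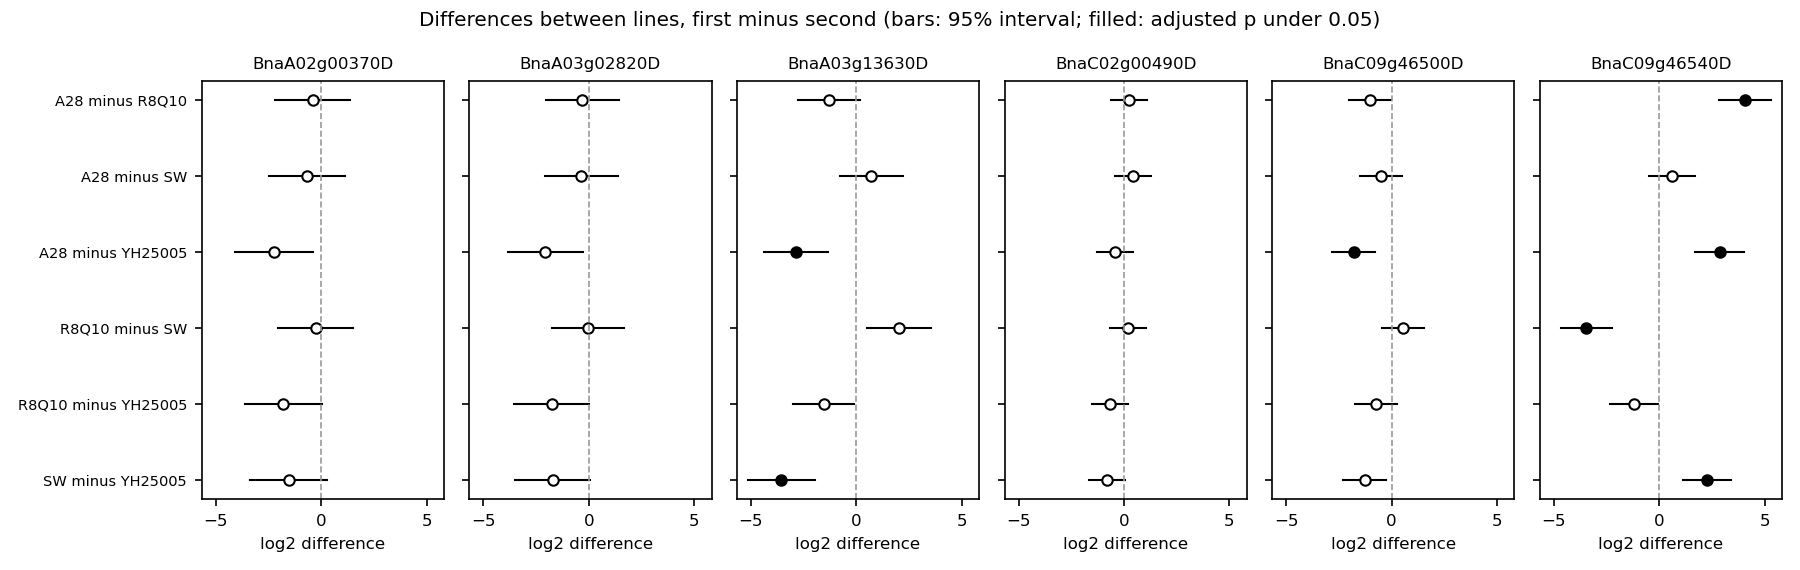
Differences in log2 CPM between lines for the 6 FLC copies listed in all 12 libraries, first line minus second; points are edgeR estimates, bars 95% intervals, and filled points have an adjusted p under 0.05. BnaC09g46540D has 4 filled points, between -3.46 and 4.07, while BnaA02g00370D, BnaA03g02820D and BnaC02g00490D have none.

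Copies listed for a single pair of lines could be tested within that pair, in a fit of its 6 libraries over the full list. In SW against YH25005, 5 of the 6 copies listed in all libraries were called, where 34.7% of 46839 genes were, 17.8% higher and 16.8% lower. BnaA10g22080D is left out of this count, since its listing through YH25005 fixed its difference in direction. As a description, it stood in SW at a log2 difference of -6.44 from YH25005. BnaA03g13630D was lower in SW at -3.50 (adjusted p = 0.000591) and BnaC09g46500D at -1.22 (adjusted p = 0.0102), and BnaC09g46540D was higher in SW by 2.33 (adjusted p = 0.00322). BnaA03g02820D (-1.65, adjusted p = 0.0199) and BnaA02g00370D (-1.48, adjusted p = 0.0259) were lower in SW. These last calls rested on few libraries. The A2 call was lost without SW replicate 1 (adjusted p = 0.0643), YH25005 replicate 1 (0.0780) or YH25005 replicate 3 (0.0775) and with the replicate number as a block (0.0519), and the BnaA03g02820D call without the same libraries (0.0512, 0.0645 and 0.0586), but not with the block (0.0412). BnaC02g00490D did not pass, at -0.76 (interval -1.56 to 0.03; adjusted p = 0.123).

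In A28 against R8Q10 over the full list, 1 of 7 copies was called, where 15.8% of 47207 genes were, 8.26% higher and 7.54% lower. It was BnaC09g46540D, higher in A28 by 4.01 (edgeR adjusted p = 0.0053). Deviations of same-numbered libraries of these lines correlated at 0.118, 0.581 and 0.432. With 3 libraries a line these values are not independent, and they do not establish a pairing. With the replicate number as a block 2 copies were called, where 10174 of 47207 genes were. The other copy was BnaC09g46500D, lower in A28 at -1.22 (edgeR adjusted p = 0.0192). BnaC03g16530D, tested in this pair alone, differed by -0.35 (interval -2.32 to 1.62; adjusted p = 0.832).

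Within lines, some FLC copies moved further between replicates than most genes. In A28 the highest library exceeded the lowest in TMM-scaled CPM by 9.81 times for BnaA02g00370D and by 9.46 times for BnaA03g02820D, where 3.84% and 4.0% of 43652 genes had at least that log2 range. Replicate 2 was the highest A28 library for those copies and also for BnaA03g13630D (4.95 times), BnaC03g16530D (4.97 times), BnaC09g46500D (3.99 times) and BnaC02g00490D (2.21 times). BnaC09g46540D did not take part: its A28 libraries differed by 1.63 times, with replicate 3 highest, and 60.9% of genes had at least that range.

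R8Q10 showed a swing of the same kind. BnaA02g00370D differed by 4.45 times between its libraries and BnaA03g02820D by 4.03 times, both highest in replicate 2 and lowest in replicate 3. There BnaC09g46540D was also highest in replicate 2, by 4.39 times over its lowest library, replicate 1, while BnaA03g13630D was highest in replicate 1 and moved by 5.80 times. In SW replicate 3 was the lowest library for all 7 listed copies, and replicate 2 was again the highest for BnaA02g00370D and BnaA03g02820D. By contrast, in YH25005 replicate 2 was the lowest for all 7, by 1.54 to 2.86 times. The median log2 range over all genes was 0.88 for A28, 0.58 for R8Q10, 0.60 for SW and 0.49 for YH25005. The part that tissue make-up or sampling of the replicates has in these swings was not tested.

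Likeness between expression profiles was measured as the root mean square (RMS) difference of centred log2 CPM over the 12 libraries, so that a low value means a like profile. Of 43652 genes of at least 1 CPM, the closest to BnaA02g00370D was BnaA03g02820D, and the reverse held too, at an RMS of 0.156. These 2 copies lie on different chromosomes and are alike in sequence, so shared reads could contribute, which was not tested. Outside the FLC copies, the nearest genes were BnaAnng11010D (0.209), BnaC08g25790D (0.218) and BnaC04g47600D (0.238) for the A2 copy and BnaC05g28570D (0.213), BnaC09g32320D (0.221) and BnaAnng11010D (0.224) for BnaA03g02820D. The nearest to BnaC09g46500D were BnaCnng64110D (0.171), BnaA04g29010D (0.177) and BnaA01g35410D (0.218), and the nearest to BnaC02g00490D were BnaA05g24020D (0.170), BnaA06g37200D (0.191) and Brassica_napus_newGene_6650 (0.196).

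BnaA03g13630D and BnaC09g46540D had more distant nearest genes. For BnaA03g13630D they were BnaA04g17040D (RMS 0.50), BnaA10g07700D (0.505) and BnaA07g33900D (0.591), and for BnaC09g46540D they were BnaC02g35320D (0.522), BnaA07g17960D (0.587) and BnaA05g16490D (0.603). The C9 copies stood at an RMS of 2.42 from each other, which put BnaC09g46500D at rank 37327 of the genes ordered by likeness to BnaC09g46540D. None of these genes has a name in the sources used here.

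Each copy was set beside its neighbours, as the line's mean log2 CPM minus the mean of the other 3 lines. Neighbours were the 25 genes on each side in ID order among genes listed in all 12 libraries. Genes filtered from any line were thus left out. Only 15 such genes came before the A2 copy and 24 before the C2 copy. These are descriptions without a test. Around the A10 copy the neighbours were nearly silent in R8Q10: their median stood at -6.37 (quartiles -7.50 and -4.77), against 2.28 for A28, 2.18 for SW and 1.79 for YH25005. The low R8Q10 level itself lifts the medians of the other lines, since each line is set against the other 3. In the pairs without R8Q10 the median neighbour difference was 0.24 in A28 minus SW, 0.49 in A28 minus YH25005 and 0.28 in SW minus YH25005. Of 50 neighbours, 48 were called higher in A28 than in R8Q10 and 0 lower, and 48 were called lower in R8Q10 than in YH25005. Each listed gene passed 1 CPM in 3 or more of the 6 libraries of its list. A neighbour silent in R8Q10 was therefore listed through A28, which fixed its direction against A28. R8Q10 was low for nearly all of these neighbours of the A10 copy, and the copy itself was not listed there. SW was different. Its neighbours were close to those of YH25005, with 8 of 50 called higher and 2 lower in SW, while the copy itself, listed through YH25005, stood at -6.44 in SW minus YH25005.

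On C9 the neighbours of BnaC09g46540D were higher in R8Q10, with a median of 0.78, against -0.13 for A28, -0.29 for SW and -0.51 for YH25005. Of the 50 neighbours, 15 were called lower and 3 higher in A28 than in R8Q10. BnaC09g46540D itself stood at -3.10 in R8Q10, which is -3.88 relative to its neighbours' median, and at 2.61 in A28, 1.81 in SW and -1.32 in YH25005. It was thus below the median of its segment in R8Q10, although the lowest neighbour there stood at -4.16. BnaC09g46500D, at 0.29 for R8Q10, -1.29 for A28, -0.36 for SW and 1.36 for YH25005, was highest in YH25005, the line where its neighbours had their lowest median (-0.51).

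On A3 the neighbours of BnaA03g02820D were higher in SW, with a median of 0.55 (quartiles -0.00 and 1.16), against -0.38 in A28, -0.13 in R8Q10 and -0.11 in YH25005. The copy did not follow: it stood at -0.23 in SW, -1.47 in A28, -0.46 in R8Q10 and 2.17 in YH25005. The difference of SW lay mostly beyond the genes next to the copy. Among the 20 nearest genes, BnaA03g02640D to BnaA03g02970D, the SW median was 0.05, and among the 30 farther ones it was 0.85, with 19 of 30 above 0.5. This split at 10 genes on each side was read after the values were seen.

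On C3 the neighbours of the unlisted BnaC03g04170D were low in SW, with a median of -3.11 (quartiles -5.84 and -0.40), against 0.80 in A28, 1.13 in R8Q10 and 1.15 in YH25005. Of 50 neighbours, 34 were called lower and 3 higher in SW than in YH25005. Neighbours silent in SW were listed through YH25005, which fixed their direction. The 20 nearest, BnaC03g03780D to BnaC03g04500D, did not share the low SW level as a group. Their SW median was 0.10, with 6 of 20 below -1, against -4.30 and 26 of 30 below -1 in the farther genes. The low SW level itself lifts the medians of the other lines, since each line is set against the other 3. In the pairs without SW the median neighbour difference was 0.08 in A28 minus R8Q10, 0.02 in A28 minus YH25005 and 0.06 in R8Q10 minus YH25005. The copy was listed in none of the lines, those whose neighbours stood above SW included. Around BnaC03g16530D the medians were between -0.05 and 0.13 in all lines.

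The A2, C2 and second A3 copies lay among genes whose line medians stayed between -0.31 and 0.34. The neighbours of BnaA02g00370D had medians of -0.31 for A28, -0.13 for R8Q10, -0.07 for SW and 0.17 for YH25005, while the copy stood at -1.72 for A28, -0.53 for R8Q10, 0.02 for SW and 2.23 for YH25005. The neighbours of BnaA03g13630D had medians of -0.06 to -0.01, and the copy ran between -1.90 in SW and 2.82 in YH25005. Those of BnaC02g00490D had medians of -0.07 in A28 and R8Q10, 0.02 in SW and 0.34 in YH25005, and the copy stood at 0.06 for A28, -0.23 for R8Q10, -0.49 for SW and 0.66 for YH25005. In YH25005 the line differences of the A2 copy and of both A3 copies were thus above the medians of the genes beside them. Single neighbours of the A2 copy exceeded it there, up to 4.68.

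**Figure D4:**
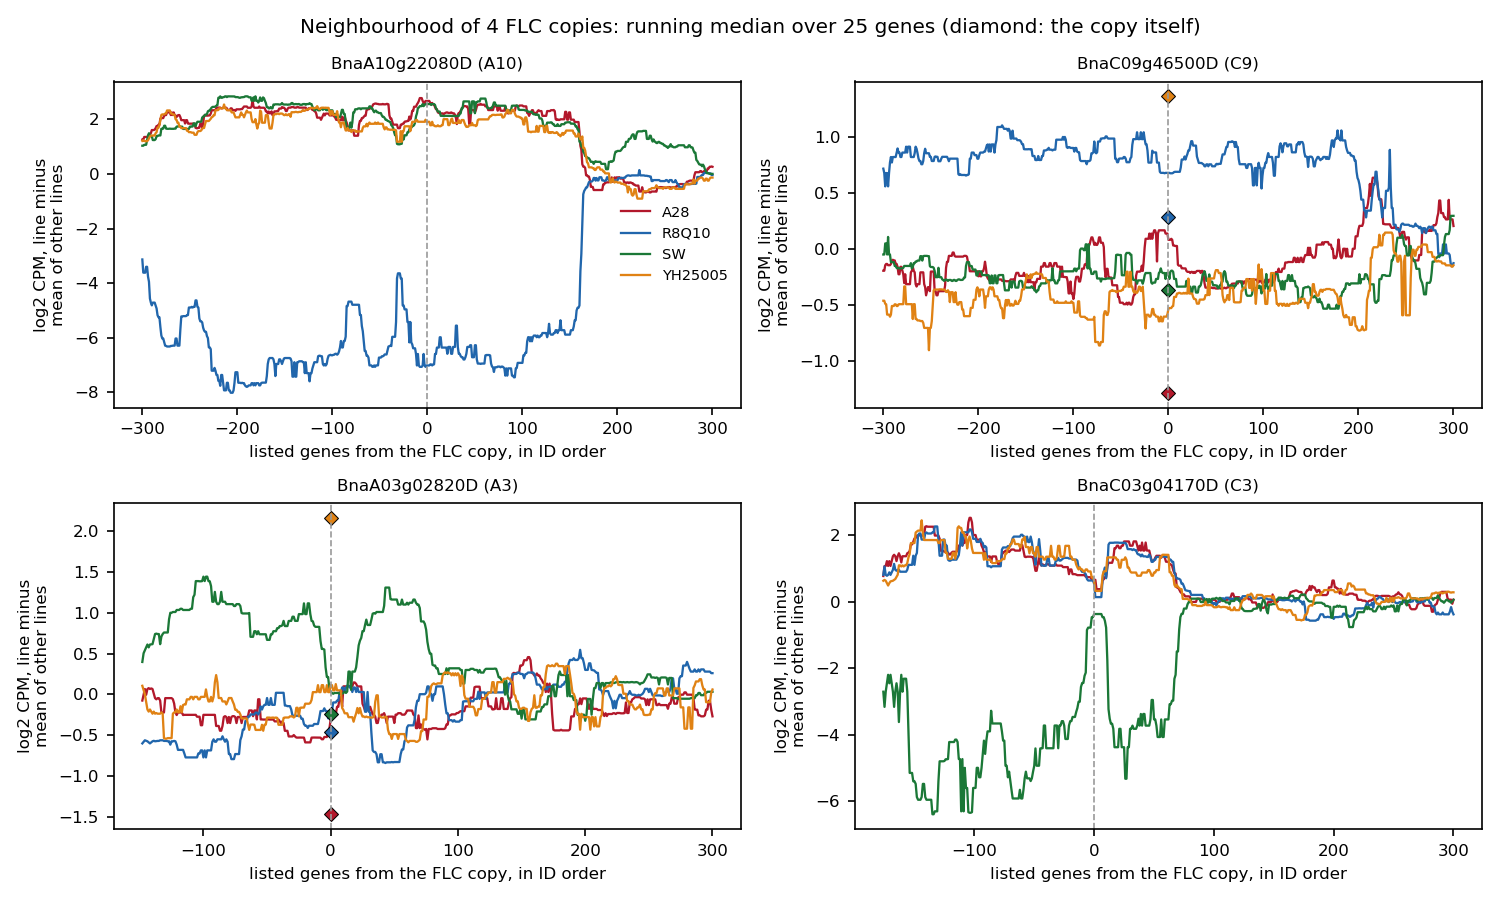
Running median over 25 genes of log2 CPM, line minus the mean of the other lines, for the neighbourhoods on A10, C9, A3 and C3. The horizontal axis counts genes listed in all libraries from the FLC copy, in ID order. Diamonds are the copies themselves where listed in all libraries. The R8Q10 line lies far below the others around the A10 copy (median -6.37), the SW line lies low on C3 (median -3.11), and on A3 the YH25005 diamond at 2.17 stands above its line.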

How the data were processed

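Counts and FPKM per gene were deposited by the authors for each of 12 libraries, 1 file a library, per the file headers. Deposited counts were whole numbers, were used as they stand and entered the tests. The FPKM values deposited by the authors were used to compare levels between copies. Poly-A libraries were sequenced as Illumina read pairs, per the labels' protocols, and bcl2fastq, HISAT2 and DESeq2 are named, per the submitters' processing notes. No genome build, annotation or counting program is given in the sources used. All 24 value columns were mapped to libraries by their titles, and 0 were left unused.

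Counts were fitted with edgeR 4.0.16 in R 4.3.3 (TMM, filterByExpr, which removed 0 genes, glmQLFit and glmQLFTest), with 1 coefficient per line and Benjamini-Hochberg adjustment over all genes of a contrast. The 43708 genes in all files were tested in 12 libraries, and the full lists of A28 with R8Q10 and SW with YH25005 in 6. DESeq2 1.42.0 was an alternative. Log2 CPM used a prior count of 2. The code was tested on simulated data. Floors of 3 counts cover counting error only, and the spread between libraries (biological coefficient of variation 0.264 to 0.499) limits precision further.

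The copies, lists and tests were chosen with earlier results of these data known. Genes named are all 9 copies and, for each copy listed in all libraries, the 3 genes (mean of at least 1 CPM, not within 50 listed genes of it) nearest by RMS difference. No pairing by replicate number was assumed in the main fits. Same-numbered deviations correlated over 0.1 in 3 of 3 pairs of A28 with R8Q10 (0.118, 0.581 and 0.432), which does not establish a pairing. In every other pair of lines at least 1 correlation was under 0.1. No sequence is shown, because the sources used here tie none to these IDs.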

Additional observations from a re-analysis of the deposited data

How the results depend on the processing

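No called difference of a single copy changed sign under any setting, while 14 of 50 differences, all without a call in either setting, did. DESeq2 called 5 copies across the 4 lines (3 in edgeR), 5 in A28 against YH25005 (3) and 2 in R8Q10 against SW (1). Over all genes, DESeq2 called 24986 of 43573, 15173 of 43574 and 12863 of 43574 in these comparisons. The edgeR calls there were 20209, 11892 and 10321 of 43708, so calls over all genes rose too. Library totals in place of TMM also called 2 in R8Q10 against SW, where 10395 of 43708 genes were called. A fit of only the lines compared called 2 in R8Q10 against YH25005 (0) and 5 in SW against YH25005 (2). Over all genes it called 13699 of 43459 in the former pair and 14333 of 43708 in the latter. With 12 libraries these were 10217 and 11659 of 43708. Median-of-ratios factors kept each count within 1.5 times. Leaving out the filter on low counts was no test, since it removed 0 genes. The cause was not tested.

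The sign changes came with library totals for BnaC02g00490D in A28 minus YH25005 (0.026) and BnaA03g02820D in R8Q10 minus SW (0.070), and otherwise when 1 library was left out. In A28 minus R8Q10 the values then ran from -2.23 to 0.40 for BnaA02g00370D, -2.00 to 0.47 for BnaA03g02820D and -0.16 to 0.54 for BnaC02g00490D, and in the full list from -2.23 to 0.42, -2.00 to 0.49 and -0.15 to 0.54 for these copies and from -1.25 to 0.58 for BnaC03g16530D. In A28 minus SW they ran from -2.06 to 0.060 for BnaA03g02820D, -0.27 to 1.03 for BnaA03g13630D and -0.0014 to 0.61 for BnaC02g00490D. In R8Q10 minus SW they ran from -1.13 to 0.13 for BnaA02g00370D, -0.87 to 0.32 for BnaA03g02820D and -0.18 to 0.37 for BnaC02g00490D.

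Leaving out 1 library at a time gave 2 to 5 called copies across the 4 lines, 1 to 5 in A28 against R8Q10, 0 to 2 in A28 against SW, 2 to 5 in A28 against YH25005, 1 to 2 in R8Q10 against SW, 0 to 2 in R8Q10 against YH25005 and 2 to 4 in SW against YH25005. Of all 43708 genes, the same fits called 15718 to 24086 across the 4 lines. By pair they called 7125 to 10871 in A28 against R8Q10, 4871 to 9599 in A28 against SW and 7455 to 15888 in A28 against YH25005. They called 7640 to 11871 in R8Q10 against SW, 6191 to 12503 in R8Q10 against YH25005 and 7862 to 13733 in SW against YH25005. In the full list of SW against YH25005, leaving out 1 library gave 4 to 6 copies, BnaA10g22080D included, and 10887 to 16566 of 46839 genes. BnaC09g46500D lost its call across lines without A28 replicate 1 (edgeR adjusted p = 0.0784), R8Q10 replicate 1 (0.0530), YH25005 replicate 1 (0.0980) or replicate 3 (0.0820), and with library totals (0.0966).

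Correlations of same-numbered libraries ran from -0.30 to 0.58. They were over 0.1 in all 3 pairs of A28 with R8Q10 but in 8 of all 18 pairs, and 6 of 12 libraries correlated best with their own number, so over the 12 libraries the numbers are not a shared pairing. With the replicate number as a block, 5 copies were called across the 4 lines, 5 in A28 against YH25005, 2 in R8Q10 against YH25005, 5 in SW against YH25005, and 2 in the full list of A28 against R8Q10. Over all genes the block fits called 20827, 12836, 11096 and 12220 of 43708 in turn, and 10174 of 47207 in the full list.

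Neighbour medians depended on the window. With 10 genes each side they were 0.048 in SW around BnaA03g02820D, -6.80 in R8Q10 around BnaA10g22080D, 0.10 in SW around BnaC03g04170D, where the sign reversed, and 0.68 in R8Q10 around both C9 copies. With 50 genes each side they were 0.83 in SW around BnaA03g02820D and -3.48 in SW around BnaC03g04170D. Leaving out 1 library gave 0.72 to 0.82 in R8Q10 around the C9 copies.

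Over all genes, calls in R8Q10 against YH25005 (10217) were 6191 to 6638 without replicate 1 or 3 of either line, and in A28 against YH25005 (11892) 7455 and 7550 without YH25005 replicate 1 or 3. Fits of only the lines compared called 6209 (9463 with 12 libraries) in A28 against R8Q10, 3849 (6727) in A28 against SW and 7884 in A28 against YH25005. The full list of A28 against R8Q10 (7459) had 11386 with DESeq2 and 4430 to 4842 without an R8Q10 library.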
